A study of Mus musculus with 15 samples.

Results

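The Cajal-Retzius cell genes are 7 marker genes, *Trp73*, *Lhx1*, *Lhx5*, *Ebf3*, *Nhlh2*, *Calb2*, and *Ndnf*, which were taken from a list of known markers with *Reln* left out. All 7 were found by their Ensembl identifiers among the 19475 genes of the deposited table. They were compared between the 3 genotypes beside the *Reln* transcript. The question was whether genes of Cajal-Retzius cells go down with *Reln* or whether *Reln* goes down without them. The share of *Reln* reads that comes from these cells was not tested.

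The data are RNA-Seq measurements of brain tissue from 15 C57BL/6J mouse embryos at E16.5, late in the neurogenesis of the cortex. There were 5 WT, 5 *Tbr1*+/K228E (heterozygous), and 5 *Tbr1*K228E/K228E (homozygous) embryos, with 3 females and 2 males in each genotype. The K228E substitution is a knock-in in exon 1 of *Tbr1* that every cell carries from conception, and the neomycin cassette of the targeting construct had been removed with protamine-Cre. The sample labels name the tissue brain, the series names it whole brain, and the paper names it forebrain.

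Cajal-Retzius cells are among the earliest neurons of the cerebral cortex. They are born at the borders of the cortical field, mainly in the cortical hem, the septum, and the ventral pallium, spread below the pia in the marginal zone, and secrete Reelin, the protein encoded by *Reln*, which guides the layering of later-born neurons. TBR1 is a T-box transcription factor of early cortical neurons that include Cajal-Retzius cells, and *Reln* is a known target. All 7 genes are used as markers of Cajal-Retzius cells within the embryonic cortex. *Lhx1*, *Lhx5*, *Ebf3*, *Nhlh2*, and *Calb2* are also used by neurons of the midbrain, thalamus, hypothalamus, or hindbrain. Which cells express each gene in these samples was not tested.

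Summed normalized read counts were 30.5 to 31.8 M (megareads) per embryo, which corresponds to about 26.2 to 38.0 M reads as estimated from the spacing of the lowest values. Pairs of embryos within a genotype had correlations of log2 values from 0.977 to 0.987. *Tbr1*, the targeted gene, averaged 3537 normalized counts in WT (SD 1049), 6269 in heterozygous (SD 1532), and 11366 in homozygous embryos (SD 3160), with 5 embryos each, and every homozygous embryo was above every WT embryo. The samples differed in regional markers within each genotype. Marker genes of the midbrain and cerebellum summed to 1529 to 5439 normalized counts in WT, 200 to 4544 in *Tbr1*+/K228E, and 727 to 6154 in *Tbr1*K228E/K228E embryos. The lowest sum was that of 1 heterozygous embryo, replicate 2. It had 1.86 normalized counts of *En1*, 2.58 of *Pax7*, and 8.34 of *En2*, but 110 of *Tal1* and 63.7 of *Gata2*.

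*Reln*, the gene of the protein that Cajal-Retzius cells secrete, had ranges that did not overlap between genotypes. Its coefficient of variation was 1.27% in WT, 5.18% in heterozygous, and 9.6% in homozygous embryos, below that of every member in each genotype. Its normalized read count was 10821, 10551, 10726, 10831, and 10906 in the 5 WT embryos, 9189, 10206, 10478, 10082, and 10432 in *Tbr1*+/K228E embryos, and 6444, 8400, 7161, 7318, and 7213 in *Tbr1*K228E/K228E embryos. No homozygous value reached the heterozygous range, and no heterozygous value reached the WT range. The highest heterozygous value, 10478, lay close below the lowest WT value, 10551. In *Tbr1*K228E/K228E embryos *Reln* fell by 0.56 on the log2 scale relative to WT embryos, with an interval of -0.68 to -0.45 and an adjusted p of 0.000603 (limma, Benjamini–Hochberg correction for 16507 tested genes). In *Tbr1*+/K228E embryos the log2 fold change was -0.10, which did not pass this correction (adjusted p = 0.999, limma), although the groups did not overlap (two-sided exact permutation test of *Reln* alone, p = 0.00794, the smallest that 5 against 5 embryos allow). All log2 fold changes are on the scale log2(normalized read count + 1), and intervals are 95% intervals from limma.

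The 2 upstream stretches that bear on this comparison are those of *Reln*, the transcript that fell, and of the internal start of *Trp73*, from which the N-terminally shortened p73 of Cajal-Retzius cells is made. Both were taken from RefSeq windows on GRCm38.p6 and run 5′ to 3′ over the 250 bases before the start, on the minus strand, at chr5:22344706-22344955 for *Reln* and chr4:154097174-154097423 for *Trp73*. Neither overlaps an annotated exon of its gene, and the *Trp73* window lies inside the gene, in an intron of its longest transcript. Capitals mark AGGTG or its reverse complement CACCT, the letters that begin the T-box sequence AGGTGTGA.
Reln: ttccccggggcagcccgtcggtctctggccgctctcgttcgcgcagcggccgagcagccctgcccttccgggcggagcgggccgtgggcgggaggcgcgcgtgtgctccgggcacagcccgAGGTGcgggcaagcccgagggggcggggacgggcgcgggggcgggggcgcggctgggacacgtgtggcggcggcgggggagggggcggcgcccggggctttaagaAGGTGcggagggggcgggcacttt
Trp73: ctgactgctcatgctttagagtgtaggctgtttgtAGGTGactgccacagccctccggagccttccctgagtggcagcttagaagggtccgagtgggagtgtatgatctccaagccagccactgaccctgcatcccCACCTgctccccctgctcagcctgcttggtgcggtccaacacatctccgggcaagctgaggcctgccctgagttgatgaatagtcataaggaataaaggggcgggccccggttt
AGGTG was found 2 times in each of these windows, and 46.0% of 32851 RefSeq windows hold it at least once. It was not found in the other windows at hand, the second of *Trp73* and those of *Lhx1*, *Ebf3*, and *Nhlh2*. The longer letters GGTGTG and AGGTGTGA, which overlap each other, were found in none of the windows named here. Their shares among all windows were 16.3% and 1.12%. No window was at hand for *Lhx5*, *Calb2*, and *Ndnf*.

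In WT embryos the 7 genes differed widely in level per kilobase of exon. *Calb2* was highest with 910 ± 171 normalized counts per kb (SD, n = 5), followed by *Ebf3* with 546 ± 206, *Lhx5* with 293 ± 67.5, *Lhx1* with 274 ± 73.2, *Nhlh2* with 172 ± 8.48, *Trp73* with 69.3 ± 18.9, and *Ndnf* with 47.3 ± 14.0. The ranges of neighbors in this order overlapped except for *Lhx1* above *Nhlh2* and *Nhlh2* above *Trp73*. The members also differed in how evenly they were expressed among WT embryos. The coefficient of variation of normalized counts was 1.27% for *Reln* and 4.94% for *Nhlh2*, but 18.8% for *Calb2*, 23.0% for *Lhx5*, 26.7% for *Lhx1*, 27.2% for *Trp73*, 29.6% for *Ndnf*, and 37.8% for *Ebf3*.

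**Figure D1:**
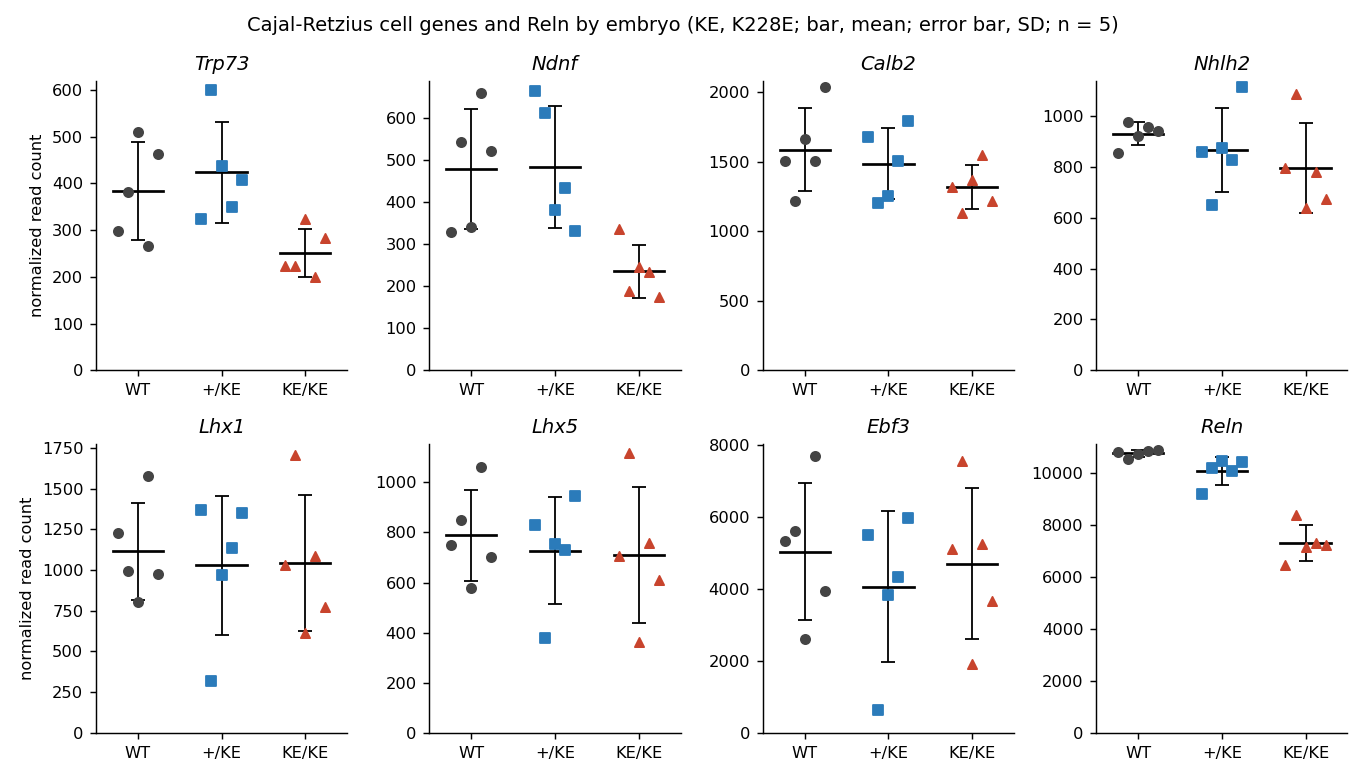
Normalized read counts (vertical axes, linear, from 0) of the 7 Cajal-Retzius cell genes and *Reln* in embryos of each genotype, with 1 point per embryo, a horizontal bar for the mean, and an error bar for the SD (n = 5). *Reln* is lower in homozygous embryos, and its heterozygous values end close below the WT values. *Trp73* and *Ndnf* are low in homozygous embryos with some overlap with WT embryos. *Lhx1*, *Lhx5*, and *Ebf3* spread widely and overlap in all genotypes, with 1 low heterozygous embryo, replicate 2.

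*Trp73* encodes p73, a transcription factor of the p53 family on which Cajal-Retzius cells depend for their survival. In GRCm38 it occupies bases 154056253 to 154140208 of chromosome 4, on the minus strand. Its normalized read count was 297, 381, 511, 266, and 462 in WT embryos, 325, 599, 437, 349, and 407 in *Tbr1*+/K228E embryos, and 223, 223, 324, 199, and 283 in *Tbr1*K228E/K228E embryos. The 3 lowest homozygous embryos lay below every WT embryo, the other 2 within the WT range, and all 5 lay below every heterozygous embryo. The homozygous mean was 34.7% below the WT mean, and the log2 fold change was -0.59 (interval -1.02 to -0.17). The exact permutation p of *Trp73* alone was 0.0397, and in limma, corrected for all tested genes, the adjusted p was 1.

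*Ndnf* encodes a secreted factor with fibronectin type III domains, first described as neuron-derived and neurotrophic, that marks Cajal-Retzius cells and, later, interneurons of layer 1. It lies on the plus strand of chromosome 6, from 65671590 to 65712326. Normalized read counts were 329, 542, 340, 659, and 522 in WT embryos, 663, 611, 382, 432, and 330 in *Tbr1*+/K228E embryos, and 335, 189, 246, 233, and 174 in *Tbr1*K228E/K228E embryos. Homozygous replicate 1 reached the low end of the WT and heterozygous ranges, and the other 4 homozygous embryos lay below every embryo of both genotypes. The homozygous mean was 50.8% below the WT mean, with a log2 fold change of -1.01 (interval -1.51 to -0.50). *Ndnf* ranked 37th by p among 16507 genes, and the limma p after adjustment was 0.301, with an exact permutation p of 0.0159 for the gene alone. With an empirical null, in which the spread of the test statistics is estimated from their central part, its adjusted p was 0.0402 (limma statistics), and over the other alternative fits and the fits that left out 1 embryo it was not below 0.05. The paper, which used DESeq2 with an empirically estimated null on these embryos, lists *Ndnf* among its downregulated genes in homozygous brains. Its qRT-PCR showed the changes of *Tbr1* and *Reln*, and the other genes tried could not be verified, although their directions were similar.

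*Calb2* encodes calretinin, a calcium-binding protein of Cajal-Retzius cells, thalamic neurons, and some interneurons, and lies on chromosome 8 from 110137502 to 110168210. It was measured at 1507, 1218, 1665, 1504, and 2034 in WT, 1679, 1203, 1252, 1506, and 1788 in *Tbr1*+/K228E, and 1314, 1134, 1369, 1544, and 1218 in *Tbr1*K228E/K228E embryos. The groups overlapped, with 1 homozygous embryo below every WT embryo, and the log2 fold change between homozygous and WT embryos was -0.26 (interval -0.54 to 0.03). The exact permutation p for *Calb2* alone was 0.127.

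*Nhlh2* encodes a basic helix-loop-helix factor of young neurons and lies on chromosome 3 from 102010076 to 102015492. It was measured at 856, 976, 921, 956, and 942 in WT, 857, 649, 876, 829, and 1113 in *Tbr1*+/K228E, and 795, 1087, 637, 779, and 672 in *Tbr1*K228E/K228E embryos. WT embryos lay close together, 4 homozygous embryos lay below all of them, and the fifth, replicate 2, lay above all of them. The log2 fold change was -0.25 (interval -0.55 to 0.04, exact permutation p = 0.111).

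*Lhx1* and *Lhx5* encode LIM homeodomain factors, and *Ebf3* encodes a factor of the COE family. They lie on chromosome 11 from 84518284 to 84525535, on chromosome 5 from 120431699 to 120441223, and on chromosome 7 from 137193673 to 137314445. *Lhx1* was measured at 1225, 994, 806, 1577, and 974 in WT, 1369, 320, 969, 1135, and 1348 in *Tbr1*+/K228E, and 1031, 1706, 615, 1084, and 772 in *Tbr1*K228E/K228E embryos. The 3 genotypes overlapped throughout, and the lowest embryo of all was heterozygous replicate 2. *Lhx5* was measured at 751, 848, 577, 1061, and 702 in WT, 828, 377, 755, 729, and 947 in *Tbr1*+/K228E, and 706, 1116, 364, 756, and 612 in *Tbr1*K228E/K228E embryos. *Ebf3* was measured at 5343, 5608, 2615, 7686, and 3943 in WT, 5514, 633, 3837, 4338, and 5978 in *Tbr1*+/K228E, and 5100, 7572, 1929, 5261, and 3677 in *Tbr1*K228E/K228E embryos. The same embryos were high and low for all 3 genes, such as WT replicate 4 and homozygous replicate 2 at the top and heterozygous replicate 2 and homozygous replicate 3 at the bottom. Log2 fold changes between homozygous and WT embryos were -0.15 for *Lhx1*, -0.21 for *Lhx5*, and -0.14 for *Ebf3*, and their intervals, the widest of which was -1.27 to 0.99 for *Ebf3*, hold both 0 and the change of *Reln*.

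Across the list, none of the 7 genes passed the adjusted threshold of 0.05 between *Tbr1*K228E/K228E and WT embryos (limma), where 21 of 16507 genes (0.127%) did. At an unadjusted p under 0.05 there were 2 of 7, both lower, against 3.23% of all genes. All 7 log2 fold changes were below 0, as were 51.3% of those of all genes, with a median of -0.25 over the 7 genes and -0.002 over all genes. No member had groups without overlap (0.273% of all genes had them in this direction). The 7 values stayed below 0 under both other scalings, whereas those of *Lhx1* and *Ebf3* were above 0 with a hindbrain, midbrain, or telencephalon score as a covariate. The count also rests on single embryos, since without homozygous replicate 3 the values of *Lhx1*, *Lhx5*, and *Ebf3* were 0.02, 0.01, and 0.14, and without WT replicate 4 that of *Ebf3* was 0.03. Markers of some other tissues lay mostly below 0 in this comparison as well. These were 13 of the 14 tested *Hox* genes of the hindbrain and spinal cord (median -1.52) and 9 of 11 meningeal markers (median -1.29). So did 7 of 8 markers of the midbrain and cerebellum (median -0.21) and 7 of 9 choroid plexus and cilia markers (median -0.09). Other lists lay mostly above 0, with 9 of 9 interneuron markers (median 0.12) and 6 of 7 telencephalon markers (median 0.09). The same held for 6 of 8 markers of the thalamus and hypothalamus (median 0.21). No marker of these lists passed in limma. In these bulk samples, fewer Cajal-Retzius cells and less RNA of a gene per cell cannot be told apart.

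Between *Tbr1*+/K228E and WT embryos, no member and no other gene passed the threshold in limma (0% of 16507 genes), and at an unadjusted p under 0.05 there were 0 of 7 members against 1.79% of all genes. The log2 fold change was 0.15 for *Trp73* (interval -0.27 to 0.58), 0.02 for *Ndnf* (-0.49 to 0.52), -0.09 for *Calb2* (-0.38 to 0.19), and -0.12 for *Nhlh2* (-0.42 to 0.17). The intervals are wide enough to hold the -0.10 of *Reln* for every member. *Lhx1* had -0.24, *Lhx5* -0.15, and *Ebf3* -0.55, and without heterozygous replicate 2 these values were 0.14, 0.07, and 0.03.

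Between *Tbr1*K228E/K228E and *Tbr1*+/K228E embryos, which share the homozygous embryos with the comparison above, none of the 7 genes passed in limma (0.0788% of all genes did). At an unadjusted p under 0.05 there were 2 of 7, against 3.3% of all genes. *Trp73* was the member whose groups did not overlap, as was the case, in this direction, for 0.388% of all genes. Its log2 fold change was -0.75 (interval -1.17 to -0.32), with an exact permutation p of 0.00794 and an adjusted p of 0.593 (limma). *Ndnf* had a log2 fold change of -1.02 (interval -1.53 to -0.52, exact permutation p = 0.0159, adjusted p = 0.303 with limma). The other 5 ranged from -0.17 for *Calb2* to 0.41 for *Ebf3*.

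**Figure D2:**
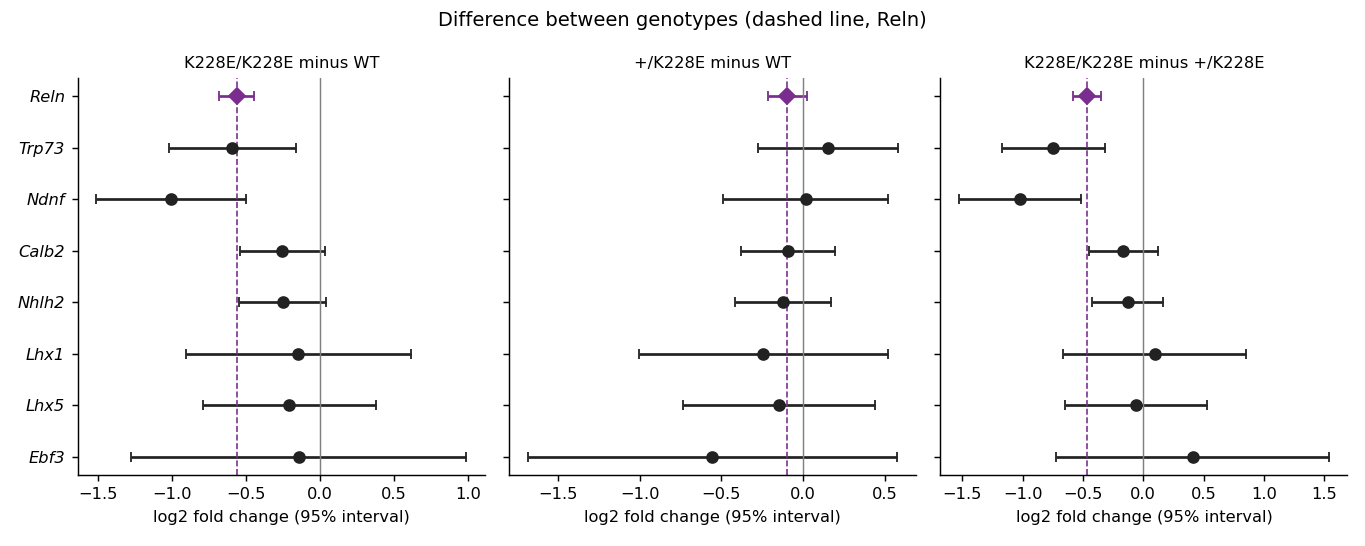
Log2 fold changes (horizontal axes) with 95% intervals of *Reln* (diamonds) and the 7 Cajal-Retzius cell genes (circles) for the 3 pairs of genotypes, from limma over 15 embryos. The dashed line is the value of *Reln*, which lies inside the intervals of *Trp73*, *Ndnf*, *Lhx1*, *Lhx5*, and *Ebf3* and outside those of *Calb2* and *Nhlh2* for homozygous against WT embryos, while the intervals of *Lhx1*, *Lhx5*, and *Ebf3* also hold 0. The line does not carry the interval of *Reln*. Taken relative to *Reln* in the same embryo, *Calb2* did not pass (0.31, interval -0.01 to 0.63). *Nhlh2* passed, but not in every fit that left out 1 embryo.

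To ask directly whether a gene differed between genotypes by another amount than *Reln* did, its log2 value was taken relative to that of *Reln* in the same embryo. The value of *Reln* covers all cells of the sample that make it. Because *Reln* itself fell, 79% of all genes passed the threshold in this test between *Tbr1*K228E/K228E and WT embryos (limma), nearly all of them higher relative to *Reln*. Of the 7 members, 1 passed. *Nhlh2* was higher relative to *Reln* by 0.31 (interval 0.04 to 0.58, adjusted p = 0.0325, limma), but it did not pass when WT replicate 1, 3, or 5 or homozygous replicate 1 or 2 was left out, with values of 0.24 to 0.31 in these fits. Other members passed when 1 embryo was left out, namely *Calb2* without WT replicate 5 (0.40, adjusted p = 0.0256, limma) or homozygous replicate 2 (0.41, adjusted p = 0.0177), *Lhx5* without homozygous replicate 3 (0.57, adjusted p = 0.0354), and *Ndnf*, in the other direction, without homozygous replicate 1 (-0.62, adjusted p = 0.036). *Trp73* differed from *Reln* by -0.03, with an interval of -0.45 to 0.39, and *Ndnf* by -0.44, with an interval of -0.998 to 0.113. The differences of *Calb2* (0.31, interval -0.01 to 0.63), *Lhx1* (0.42, -0.30 to 1.14), *Lhx5* (0.36, -0.19 to 0.90), and *Ebf3* (0.42, -0.66 to 1.5) did not pass either. Between *Tbr1*+/K228E and WT embryos no member and no gene passed relative to *Reln* (0%, limma, with 0 members and 5% of genes at an unadjusted p under 0.05). Between *Tbr1*K228E/K228E and *Tbr1*+/K228E embryos 74.3% of all genes and again 1 of 7 members, *Nhlh2*, passed (0.34, interval 0.07 to 0.61, adjusted p = 0.0228, limma). *Nhlh2* did not pass without heterozygous replicate 2 (0.24), homozygous replicate 1 (0.29), or homozygous replicate 2 (0.27). Without heterozygous replicate 2, the embryo with the lowest sum of midbrain and cerebellum markers, no member passed.

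The members followed the regional makeup of the samples in different ways. A score for each region, the mean log2 value of its marker genes, was set beside each member after the genotype means had been subtracted, over 15 embryos (40 relations with 5 scores, permutation within genotypes, Benjamini–Hochberg correction). *Ebf3* followed the midbrain and cerebellum score with r = 0.982 (rho = 0.975), *Lhx1* with r = 0.935 (rho = 0.925), and *Lhx5* with r = 0.903 (rho = 0.904). The permutation p-values of these r were 1e-05, 4e-05, and 1e-05, and adjusted they were 0.0002, 0.0004, and 0.0002. Those of rho were 1e-05, 3e-05, and 2e-05, adjusted 0.0004 each, and 1e-05 is the smallest that 100000 permutations can give. Without the 2 embryos with the most extreme scores, heterozygous replicate 2 and homozygous replicate 3, r was 0.938, 0.809, and 0.816. These 3 genes thus followed the midbrain and cerebellum markers from embryo to embryo, and *Nhlh2* did so less evenly (r = 0.719, adjusted permutation p = 0.0575, and rho = 0.707, adjusted p = 0.0111), with r = 0.461 without those 2 embryos.

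*Trp73* went the other way. It followed the telencephalon score with r = 0.769 and rho = 0.829 (permutation p = 0.00123 and 0.00101, adjusted 0.00615 and 0.00505), and r was 0.789 without WT replicate 4 and homozygous replicate 2. Relative to the midbrain and cerebellum score, r was -0.801 and rho -0.75 (permutation p = 0.00049 and 0.00079, adjusted 0.0028 and 0.00451), and r was -0.756 without the 2 extreme embryos. *Calb2* followed the score of the thalamus and hypothalamus with r = 0.69 (adjusted permutation p = 0.0385), which was 0.459 without 2 embryos, WT replicate 2 and heterozygous replicate 2, and with rho = 0.593 (adjusted p = 0.126). Neither *Ndnf* nor *Reln* had an adjusted p under 0.05 with any of the 5 scores, and r lay between -0.398 and 0.179 for *Ndnf* and between -0.288 and 0.115 for *Reln*. No regional score passed a test between genotypes (exact permutation p of 0.294 to 0.984 for the telencephalon, midbrain and cerebellum, hindbrain, and diencephalon scores), and none of the 8 midbrain and cerebellum or 7 telencephalon markers passed in limma in any comparison. At an unadjusted p under 0.05 (limma) there was 1 of the 7 telencephalon markers between homozygous and WT embryos. It was *Fezf2*, with a log2 fold change of 0.66 (interval 0.16 to 1.17), and it is part of the telencephalon score.

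**Figure D3:**
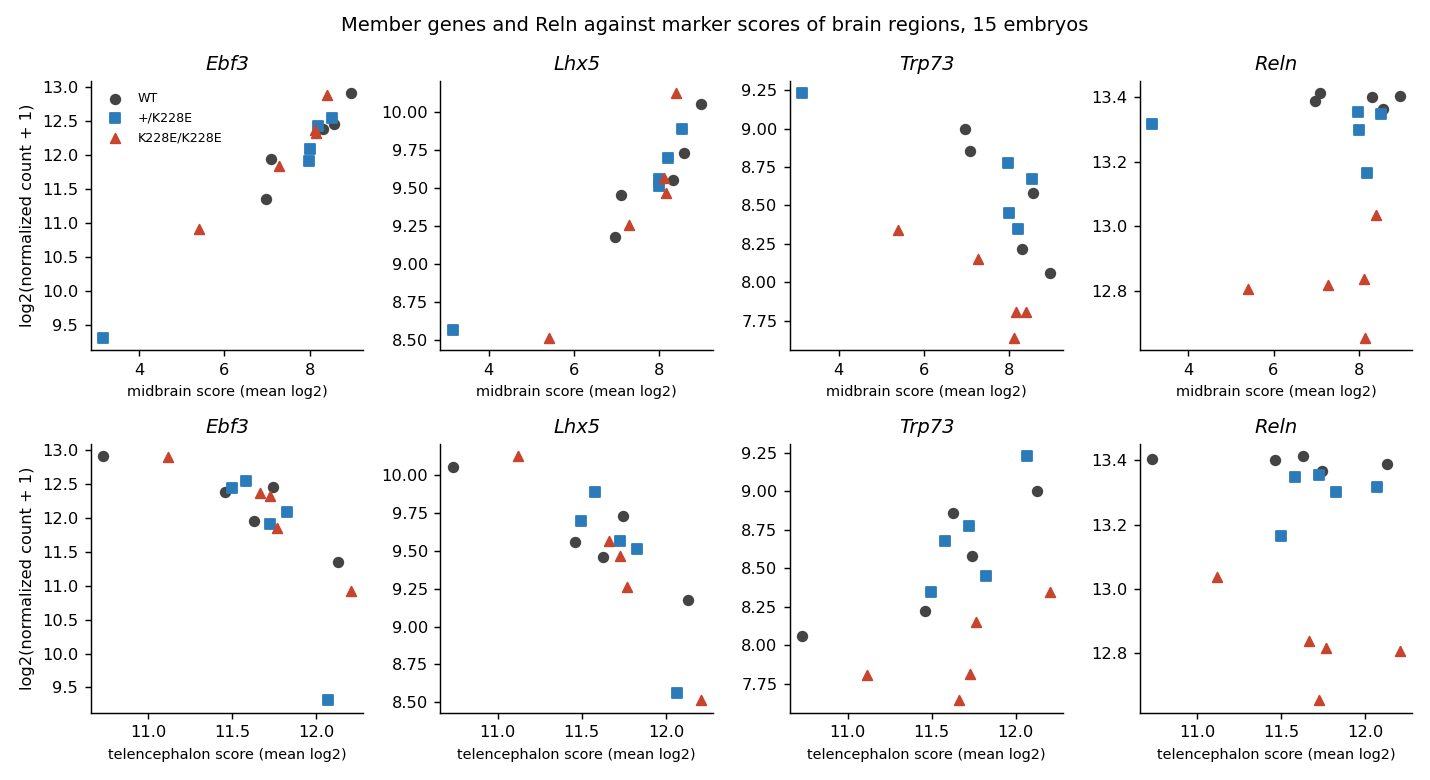
*Ebf3*, *Lhx5*, *Trp73*, and *Reln*, as log2(normalized read count + 1) on the vertical axes, against the midbrain and cerebellum score (upper panels) and the telencephalon score (lower panels), both as mean log2 values, with 1 point per embryo and genotypes by color and marker. *Ebf3* and *Lhx5* climb with the midbrain score, *Trp73* climbs with the telencephalon score with the homozygous embryos below the others, and *Reln* is lower in homozygous embryos at low and high scores alike.

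When the midbrain and cerebellum score entered the fit as a covariate, a choice made after the data had been seen, the intervals of the 3 genes that track it narrowed. The log2 fold change between *Tbr1*K228E/K228E and WT embryos was 0.05 for *Lhx1* (interval -0.24 to 0.33), -0.07 for *Lhx5* (-0.34 to 0.21), and 0.16 for *Ebf3* (-0.07 to 0.38). None of these intervals held the change of *Reln*, which was -0.56 (-0.69 to -0.44) in the same fit. Relative to *Reln*, 4 of 7 members passed in limma with this covariate, as did 79.7% of all genes. These members were *Ebf3* (0.72, adjusted p = 1.12e-05), *Lhx1* (0.61, adjusted p = 0.000273), *Lhx5* (0.50, adjusted p = 0.000543), and *Nhlh2* (0.37, adjusted p = 0.00133). *Calb2* (0.32), *Trp73* (-0.12, interval -0.41 to 0.17), and *Ndnf* (-0.46, interval -1.03 to 0.10) did not. Between *Tbr1*K228E/K228E and *Tbr1*+/K228E embryos the same 4 of 7 members passed relative to *Reln* with this covariate, where 75.2% of all genes did (limma). The share of the members was below that of all genes in both comparisons, so the counts say nothing particular about the members. Because *Lhx1*, *Lhx5*, and *Ebf3* are themselves expressed in the midbrain, the share of their reads that comes from Cajal-Retzius cells was not tested.

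With the telencephalon score as a covariate, chosen likewise, the log2 fold change of *Trp73* was -0.70 (interval -0.99 to -0.41), with an adjusted p of 0.0497 in limma, relative to WT embryos and -0.72 (interval -1.01 to -0.43, adjusted p = 0.0472, limma) relative to *Tbr1*+/K228E embryos. In these 2 comparisons 0.303% and 0.218% of all genes passed with this covariate. With the midbrain and cerebellum score the adjusted p of these differences was 0.0649 and 0.069 (limma). *Trp73* passed in neither comparison under the other alternative fits or when 1 embryo was left out. In this fit the interval of *Trp73* also held the change of *Reln*, and relative to *Reln* it differed by -0.15 (interval -0.41 to 0.12). Relative to *Reln*, 3 of 7 members passed with the telencephalon score (*Lhx1*, *Lhx5*, and *Nhlh2*), as did 80% of all genes (limma, homozygous against WT embryos). The log2 fold change of *Ndnf* relative to WT embryos was -1.03 with the midbrain and cerebellum score and -0.98 with the telencephalon score, and it passed with neither.

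**Figure D4:**
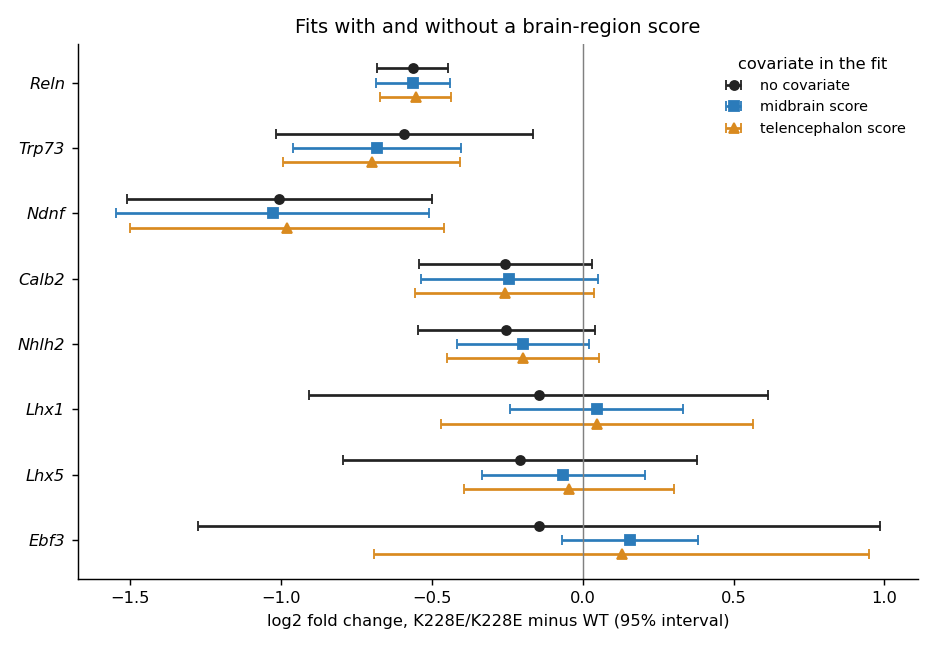
Log2 fold change between *Tbr1*K228E/K228E and WT embryos (horizontal axis, with 95% intervals) of *Reln* and the 7 Cajal-Retzius cell genes, in fits without a covariate (circles) and with the midbrain score (squares) or the telencephalon score (triangles). The intervals of *Lhx1*, *Lhx5*, and *Ebf3* narrow around 0 with the midbrain score, those of *Trp73* and *Reln* overlap in all 3 fits, and *Ndnf* stays near -1.

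The other genes described in Cajal-Retzius cells had values on both sides of 0. Of 7 such genes (*Ebf1*, *Ebf2*, *Nhlh1*, *Cacna2d2*, *Clstn2*, *Cxcr4*, and *Emx2*), 0 passed between *Tbr1*K228E/K228E and WT embryos in limma and 0 had an unadjusted p under 0.05, with 3 below and 4 above 0 and a median log2 fold change of 0.0008. They ranged from -0.32 (SE 0.49) for *Ebf2* to 0.19 (SE 0.15) for *Nhlh1*, which encodes the close relative of the NHLH2 factor. Of 8 genes of the cortical hem and ventral pallium, where Cajal-Retzius cells are born, 0 passed and 0 had an unadjusted p under 0.05, 2 were below and 6 above 0, and the median was 0.04. Their extremes were *Dbx1*, a homeobox gene of the ventral pallium, with -0.07 (SE 0.62), and *Dmrta2*, a factor that patterns the medial cortex, with 0.22 (SE 0.20). Between *Tbr1*+/K228E and WT embryos, too, 0 of the 7 and 0 of the 8 genes passed, with medians of 0.01 and 0.08. Between homozygous and heterozygous embryos 0 of either list passed in limma, with medians of 0.02 and 0.01. At an unadjusted p under 0.05 there was 1 of the 7, lower, and 0 of the 8, against 3.3% of all genes. Which cells the reads of these genes came from was not tested.

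Markers of other cells that could lie in the samples were set beside these values. Olfactory bulb mitral cells also make Reelin, and their 3 markers summed to 670 to 1133 normalized counts in WT, 662 to 1122 in *Tbr1*+/K228E, and 573 to 763 in *Tbr1*K228E/K228E embryos. Their score was lower in homozygous than in WT embryos by 0.54 on the log2 scale, with an exact permutation p of 0.0635, and 0 of the 3 passed in limma. At an unadjusted p under 0.05 there was 1 of the 3, *Cdhr1*, with a log2 fold change of -0.84 (interval -1.55 to -0.13) and 4 of 5 homozygous embryos below every WT embryo, while *Tbx21* had -0.89 (interval -2.0 to 0.22) and *Doc2g* 0.11 (interval -0.16 to 0.37). Some cortical interneurons make Reelin later in life, and the 9 interneuron markers summed to 17560 to 24112 in WT, 19513 to 26732 in *Tbr1*+/K228E, and 18346 to 25563 in *Tbr1*K228E/K228E embryos, and 0 of 9 passed. The meningeal markers, from the membrane under which Cajal-Retzius cells lie, ranged most widely, with sums of 1123 to 38329 in WT, 5707 to 24474 in *Tbr1*+/K228E, and 1066 to 29081 in *Tbr1*K228E/K228E embryos. All 11 lay below 0 between homozygous and heterozygous embryos (median -1.68), as did 9 of 11 between homozygous and WT embryos. In these comparisons *Trp73* and *Ndnf* had an unadjusted p under 0.05 (limma), and the meningeal score differed by -1.39 and -0.87 (exact permutation p = 0.294 and 0.571). Between heterozygous and WT embryos 10 of 11 lay above 0 (median 0.57), where the log2 fold change was 0.15 for *Trp73* and 0.02 for *Ndnf*. *Trp73* is also expressed by multiciliated cells, and the choroid plexus and cilia markers summed to 1364 to 21707, 6414 to 25135, and 1345 to 19896 in these genotypes. Of these 9 markers, 8 lay below 0 between homozygous and heterozygous embryos (median -0.39, score -0.63, exact permutation p = 0.262). No marker of either list passed in limma. *Trp73* correlated with the choroid plexus score with r = -0.03 and with the meningeal score with r = -0.198 (adjusted permutation p of 0.984 and 0.909). For *Ndnf*, r with the meningeal score was 0.179 (adjusted permutation p of 0.909). The meningeal and choroid plexus scores were also covariates in alternative fits. Over the 16 alternative fits between homozygous and WT embryos, the log2 fold change was -0.74 to -0.55 for *Trp73* and -1.03 to -0.90 for *Ndnf*. The share of reads of the members and of *Reln* that comes from these cells was not tested.

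Among themselves the members fell apart in the same way as against the regional scores. With the genotype means subtracted, *Lhx1*, *Lhx5*, and *Ebf3* correlated with r between 0.927 and 0.974 over the 15 embryos, and *Nhlh2* with them with r between 0.764 and 0.854. *Trp73* correlated with these 3 genes with r between -0.818 and -0.765, and with *Ndnf* with r = -0.152. With *Reln*, r was -0.556 for *Ndnf*, 0.439 for *Nhlh2*, 0.266 for *Lhx5*, -0.218 for *Calb2*, 0.16 for *Lhx1*, 0.096 for *Trp73*, and 0.0686 for *Ebf3*. These values are descriptions, since all genes of an embryo share its dissection and library. Genes whose pattern was most like that of *Trp73* included *Usp49* (r = 0.901) and *Fam76b* (0.899), and those most like *Ndnf* were *Smim19* (0.849), *Il17rc* (0.815), and *Thy1* (0.786). For *Lhx1* they were *Ebf3* (0.974), *Shox2* (0.971), and *Pdlim3* (0.967), for *Lhx5* *Mab21l1* (0.969), *Ephb1* (0.966), and *Fibcd1* (0.962), and for *Ebf3* *Irx1* (0.987), *Shox2* (0.986), and *Pax3* (0.985). For *Nhlh2* they were *Adgrb1* (0.919), *Nuak2* (0.904), and *Uncx* (0.902), and for *Calb2* *5330417C22Rik* (0.912), *Slitrk6* (0.901), and *Nwd2* (0.872). The range of *Shox2* over the 15 embryos was 81.7 to 1462 normalized counts, and that of *Irx1* was 51.0 to 1100.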

How the data were processed

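RNA-Seq of 15 brains was analyzed at the gene level. The authors quantified transcripts with Salmon 0.11.2 (GRCm38), summarized them per gene through tximport, and divided the estimates by the size factors of DESeq2 1.22.2 in R 3.5.3 (versions per the submitters' processing notes). What the authors deposited is thus a signal of normalized counts for each gene in each embryo, and as these are no whole reads, no count model was fitted. Because the library kit does not mark strand, reads of antisense genes that overlap *Trp73*, *Lhx5*, *Ebf3*, and *Reln* by 69 to 355 bp of exon cannot be told apart from theirs. Of 19475 genes, 19452 were matched to GENCODE M21.

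The 7 members, the marker lists, and the tests were chosen with earlier results of these data known. Marker lists were written from general knowledge. Genotypes were compared in R 4.3.3 with limma 3.58.1 (eBayes with a trend) on log2(value + 1) in 1 fit of all 15 embryos, over 16507 genes with a mean of at least 5, with Benjamini–Hochberg correction and a threshold of 0.05. The same fit was made on log2 values minus that of *Reln*. Single genes were compared by two-sided exact permutation tests in Python 3.11.15. The named genes are the members, *Reln*, *Tbr1*, the extremes of the 2 lists of other Cajal-Retzius and source-region genes, any listed gene past the threshold, and the 3 genes most like each member, of which 1 is not reported here. *En1*, *En2*, *Pax7*, *Tal1*, *Gata2*, *Fezf2*, and the mitral markers *Cdhr1*, *Tbx21*, and *Doc2g* were named after their values were seen. Data were simulated with each gene's spread within the 3 genotypes, drawn independently for each gene, and tested for homozygous against WT embryos. Of 200 genes that had been shifted by 1 log2 unit, 153 were recovered among 16507 genes, with 7 false calls. Regional differences shared between genes were not simulated. Embryos are separate animals. Alternatives were other pseudocounts, filters, scalings, covariates, a replicate block, an empirical null, and leaving out each embryo. Replicate numbers come from the labels and name different animals of the same sex.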

Additional observations from a re-analysis of the deposited data

Results flagged for a closer look

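In 24 groups of 5 embryos (the 7 members and *Reln* in 3 genotypes), 3 values lay far from the other 4 of their group by Dixon's criterion at 95%, and chance alone gives about 1 in 20. All 3 were in heterozygous replicate 2, with 320 normalized counts of *Lhx1*, 377 of *Lhx5*, and 633 of *Ebf3*. The gap to the next embryo was 0.762, 0.715, and 0.802 of the group's range on the log2 scale. The same embryo had the lowest midbrain and cerebellum marker sum, 200 normalized counts, against 2999 to 4544 in the other 4 heterozygous embryos, and the highest *Trp73* value of all 15 embryos. With the midbrain and cerebellum score as a covariate, log2 fold changes between heterozygous and WT embryos were 0.06 for *Lhx1*, 0.08 for *Lhx5*, and -0.08 for *Ebf3*. The share of midbrain reads in the values of this embryo was not tested.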

How the results depend on the processing

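The alternatives were 16 fits per comparison (15 relative to *Reln*, which had no empirical null) and 10 fits that left out 1 embryo each. Between homozygous and WT embryos, 21 genes passed, against 12 in a fit of the compared genotypes alone, 42 with an empirical null, and 50 with the telencephalon score, and 12 to 21 without 1 embryo. The 0 members that passed became 1 with the empirical null (*Ndnf*) and 1 with the telencephalon score (*Trp73*), and stayed 0 without any 1 embryo. Relative to *Reln*, the 1 member that passed became 4 with the midbrain score (79.7% of all genes), 3 with the telencephalon score (80%), and 0 to 2 without 1 embryo, where 12261 to 13152 genes passed. Between homozygous and heterozygous embryos, 13 genes passed, against 2 with the replicate block, 21 with the hindbrain score, 36 with the telencephalon score (with 1 member, *Trp73*), and 6 to 8 without 1 embryo (0 members). Relative to *Reln*, 1 member became 2 with the replicate block, 2 with the hindbrain score, 4 with the midbrain score (75.2% of all genes), and 0 to 2 without 1 embryo. Between heterozygous and WT embryos, 0 genes became 1 with the telencephalon score, also relative to *Reln*, and stayed 0 without any 1 embryo. The cause of these moves was not tested. The replicate numbers were taken only as names, since not every same-numbered pair of embryos deviated together. Their correlations were 0.0238 to 0.506 between homozygous and WT (4 of 5 pairs over 0.1), -0.208 to 0.224 between heterozygous and WT, and -0.232 to 0.349 between homozygous and heterozygous embryos, and 5, 2, and 4 of 10 embryos correlated best with their own number. Between homozygous and WT embryos, with the replicate block *Nhlh2* lost its call relative to *Reln* (adjusted p = 0.0507, limma) and *Calb2* gained one (adjusted p = 0.0228, limma). Signs turned for small values that passed in no fit. Between homozygous and WT embryos these were *Lhx1* (0.041, 0.046, and 0.047 with the hindbrain, midbrain, and telencephalon scores) and *Ebf3* (0.12, 0.16, and 0.13), and relative to *Reln* *Trp73* with quantile normalization (0.015). Between heterozygous and WT embryos they were *Ndnf* (-0.0040, -0.018, and -0.00054 with the meningeal, midbrain, and choroid plexus scores), *Lhx1* (0.061 and 0.0029 with the midbrain and telencephalon scores), and *Lhx5* (0.077 and 0.056). Between homozygous and heterozygous embryos they were *Lhx5* (0.035, meningeal score) and *Lhx1* (-0.015, midbrain score). Without 1 embryo, the values that changed sign ranged, between homozygous and WT embryos, from -0.35 to 0.021 for *Lhx1*, -0.39 to 0.010 for *Lhx5*, and -0.36 to 0.14 for *Ebf3*, and from -0.15 to 0.087 for *Trp73* relative to *Reln*. Between heterozygous and WT embryos they ranged from -0.39 to 0.14 for *Lhx1*, -0.26 to 0.071 for *Lhx5*, -0.78 to 0.032 for *Ebf3*, -0.18 to 0.0037 for *Calb2*, and -0.11 to 0.15 for *Ndnf*. Between homozygous and heterozygous embryos they ranged from -0.28 to 0.26 for *Lhx1*, -0.28 to 0.16 for *Lhx5*, and -0.18 to 0.70 for *Ebf3*. The lowest value of a member in any embryo was 174 normalized counts, far above the filter on low values.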

Other observations

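*Ndnf* had the smallest unadjusted p among the members in the test of a genotype difference between sexes, without passing correction. WT females had 329, 542, and 340 normalized counts and WT males 659 and 522, whereas *Tbr1*+/K228E females had 663, 611, and 382 and males 432 and 330. The difference between heterozygous and WT embryos was lower in males than in females by -1.08 on the log2 scale (unadjusted p = 0.0254, adjusted p = 0.734 over all genes, limma). For homozygous against WT embryos this value was -0.89 (adjusted p = 0.752, limma), and no gene passed in either test.

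*Reln* was among the most even genes of the WT embryos. Only 22 of 16507 tested genes (0.133%) had a smaller coefficient of variation over the 5 WT embryos, although the same embryos differed several times over in *Ebf3* and in the regional scores. For *Nhlh2* the share of genes with a smaller coefficient was 15.2%, and for the other 6 members it was 69.5% to 88.8%.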
